A study of Drosophila melanogaster with 2 samples.

Results

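The proteasome subunit genes of Drosophila melanogaster were taken as the protein-coding genes whose symbol begins with Rpn, Rpt, Prosalpha or Prosbeta in the Ensembl annotation. This rule gave 48 genes among 13945 protein-coding genes on the main chromosome arms. They comprise 9 genes of the regulatory lid, 14 of the base and 25 of the catalytic core. Of these, 32 are the widely used subunits and 16 are R or T forms, copies whose symbol ends in R or T, many of which are known from the testis. Binding was measured by chromatin immunoprecipitation and sequencing (ChIP-seq) with an antibody against GFP in embryos of a transgenic line that carries the protein CG4282, a zinc finger protein, fused to GFP at its C terminus. There was 1 group, strain CG4282-GFP, with 2 biological replicates numbered 3 and 4, each from whole embryos of mixed sex collected 0 to 24 hours after laying. Both libraries carry the same tagged insertion, so the values hold for the tagged protein and average over every cell type of the embryo. No untagged or input library was analysed here. With 1 group and 2 libraries no test over samples was possible, so every result is a count or a value, set beside the same over all protein-coding genes.

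The proteasome degrades proteins marked with ubiquitin. Its core is a barrel of alpha rings, which gate the entrance, and beta rings, which carry the proteolytic sites. The base unfolds substrates with its ring of Rpt ATPases, and the lid removes ubiquitin through Rpn11. Such genes are active in nearly all cells, and in flies the DNA replication-related element (DRE) and the shorter core recognised by the insulator protein BEAF-32 are frequent at promoters of this kind. The cap-and-collar factor cnc is known to raise proteasome gene expression when proteasome activity falls.

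The following stretches of the RefSeq reference genome (Release 6, the dm6 assembly) cover summits, the highest points of peaks, beside proteasome genes, and each is written on its gene's strand. They were chosen to set a strong summit without a DRE beside summits with one. Capitals mark matches, on either strand, to the DRE TATCGATA, the extended DRE ATCGATAG, the BEAF-32 core CGATA (held within every DRE), the TATA box TATAAA and the initiator TCAGT. Rpn5, a scaffold subunit of the lid, had the highest signal of all members, and its stretch lies at chr3R:5789192-5789292 on the plus strand.
Rpn5: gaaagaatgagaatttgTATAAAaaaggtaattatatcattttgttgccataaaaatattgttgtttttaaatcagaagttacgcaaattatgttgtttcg
The stretch of Rpn3, a scaffold subunit of the lid, lies at chr2L:19051684-19051814 on the plus strand.
Rpn3: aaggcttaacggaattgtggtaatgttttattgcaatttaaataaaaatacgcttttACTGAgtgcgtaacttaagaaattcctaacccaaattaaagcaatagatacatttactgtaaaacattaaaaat
The stretch of Rpt5, an ATPase of the base, lies at chr3R:23752811-23752900 on the plus strand.
Rpt5: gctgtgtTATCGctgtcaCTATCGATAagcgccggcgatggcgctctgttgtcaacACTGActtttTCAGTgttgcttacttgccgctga
The stretch of Prosalpha6, a subunit of the alpha ring, lies at chr2L:10221273-10221375 on the plus strand.
Prosalpha6: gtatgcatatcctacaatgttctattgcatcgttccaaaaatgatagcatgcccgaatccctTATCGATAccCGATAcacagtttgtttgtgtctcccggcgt
The stretch of Rpn11, the deubiquitinase of the lid, lies at chr2L:5059818-5059918 on the minus strand.
Rpn11: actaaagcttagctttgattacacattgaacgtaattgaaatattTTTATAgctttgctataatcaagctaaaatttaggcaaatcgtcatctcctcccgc
The stretch of Prosbeta2R2, the R or T form with the strongest summit, lies at chr3R:5219589-5219681 on the minus strand.
Prosbeta2R2: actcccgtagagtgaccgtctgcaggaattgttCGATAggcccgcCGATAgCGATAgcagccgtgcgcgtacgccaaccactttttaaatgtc
In the Rpt5 stretch the DRE filled bases 20 to 27 and the summit lay at base 51. In the Prosalpha6 stretch the DRE filled bases 63 to 70 and the summit lay at base 76. The Rpn5 and Rpn11 stretches held a match to the letters TATAAA, at Rpn11 on the opposite strand, and no DRE. These are matches of letters only, with no set distance from a start required. The Prosbeta2R2 stretch held 3 BEAF-32 cores and no DRE.

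Peaks came from 4 lists that the authors deposited: 1 for each replicate, 1 for both replicates pooled, and an optimal list, which the file names tie to a comparison of replicates by irreproducible discovery rate. The optimal list held 1985 peaks with signals from 66.9 to 1065 and a median of 93.8. The pooled list and each replicate list held 30000 peaks, which include weak signal that the file names call background. A list's signal depends on its depth, which is unknown here, and on the peak caller. Ranks, with 1 the strongest, were therefore compared between lists in place of signals. A gene's value is the highest signal among summits within 500 bp of any of its transcription start sites.

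An optimal summit lay at the start of 7 of the 48 proteasome genes (14.6%), against 11.4% of protein-coding genes. The 7 were Rpn5, Rpn6 and Rpn3 of the lid, Rpt5 and Rpn13 of the base, and Prosbeta5 and Prosbeta1 of the core. All 7 are widely used subunits. Among the widely used subunits the count was 3 of 8 in the lid, 2 of 10 in the base and 2 of 14 in the core, and among the R or T forms it was 0 of 16. Over all forms, lid and base together had 5 of 23 (21.7%) and the core 2 of 25 (8.00%). The share over all members was thus near that of protein-coding genes, while the share of the widely used lid (37.5%) was higher and that of the R or T forms lower. These counts are small, and the differences between the groups were not tested.

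**Figure D1:**
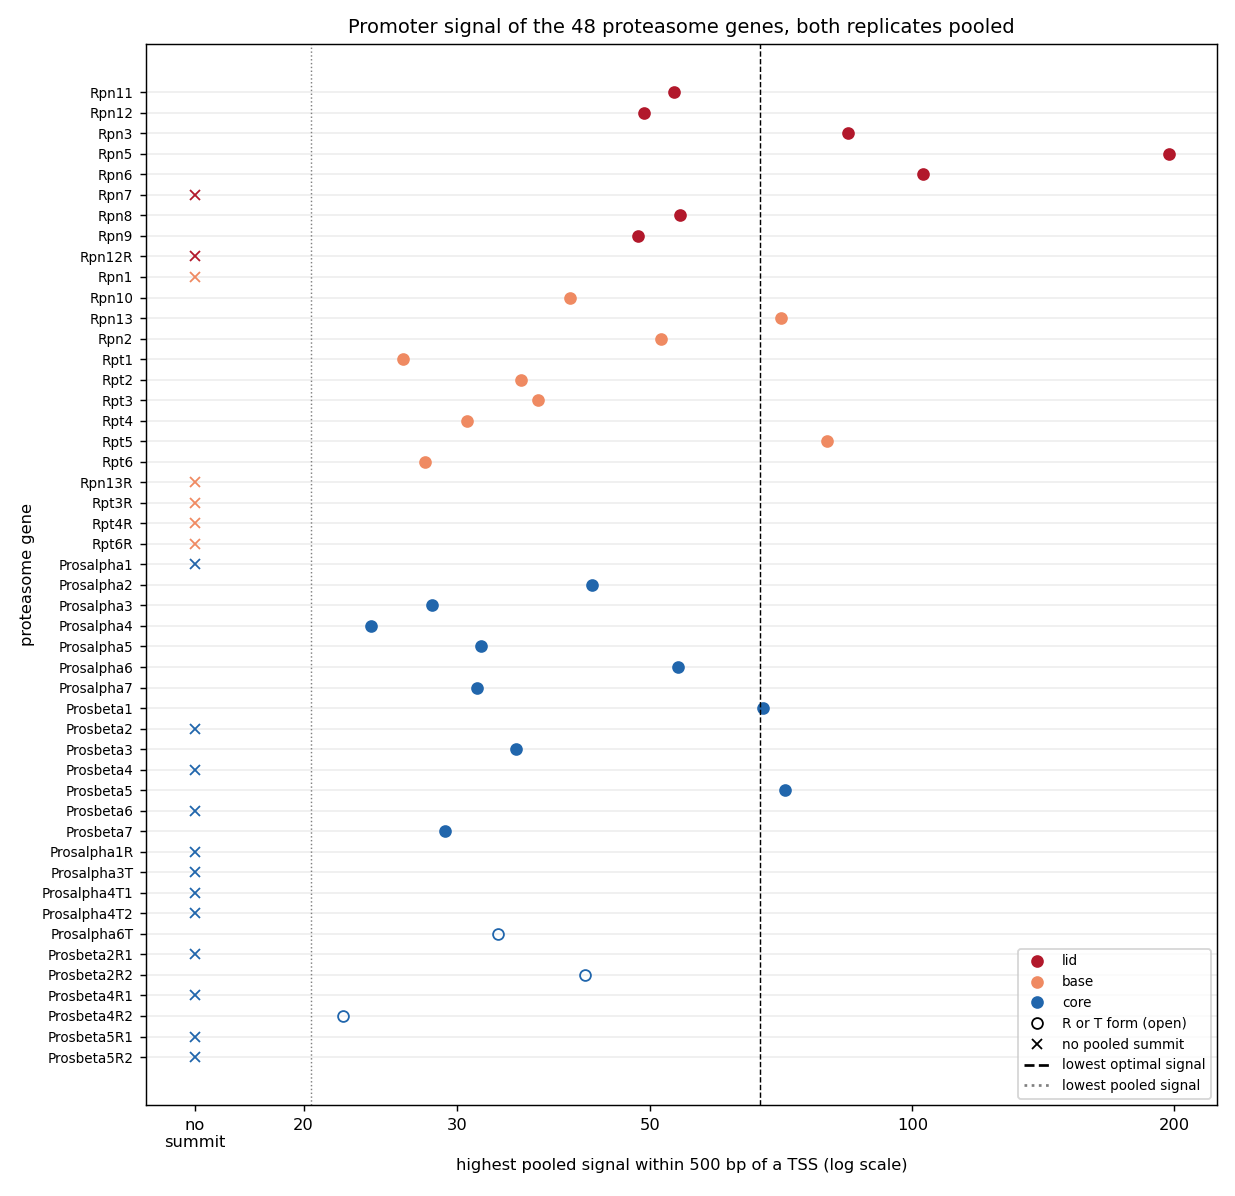
The horizontal axis gives the pooled signal of the highest summit within 500 bp of each proteasome gene's start on a log scale, and each row is a gene, with genes that have no such summit marked apart. Rpn5 stands at 197, the next gene Rpn6 at 103, and the R or T forms lie at 42.1 or lower or have no summit.

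In the lid, Rpn5 on arm 3R had a signal of 197 in the optimal and pooled lists, at pooled rank 190. Its signal was 85.2 at rank 197 in replicate 3 and 112 at rank 199 in replicate 4. Rpn5 was the only member within the strongest 500 pooled peaks, and its rank was nearly the same in every list. Rpn6, a lid scaffold subunit on arm 2R, had a signal of 103 at pooled rank 804, with 47.9 at rank 705 in replicate 3 and 56.6 at rank 1033 in replicate 4. Rpn3 on arm 2L had a signal of 84.4 at pooled rank 1246, with 41.0 at rank 935 in replicate 3 and 45.9 at rank 1708 in replicate 4. These 3 lid genes were the only members within the strongest 1985 peaks of both replicates.

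In the base, Rpt5 on arm 3R had a signal of 79.8 at pooled rank 1390, with 46.5 at rank 743 in replicate 3 and 33.5 at rank 4003 in replicate 4. Rpn13, a ubiquitin receptor on arm 2R, had a signal of 70.7 at pooled rank 1763, with 19.8 at rank 3460 in replicate 3 and 46.7 at rank 1629 in replicate 4. Each of these base genes was strong in a different replicate. In the core, Prosbeta5, which carries the chymotrypsin-like site, lies on arm 2R and had a signal of 71.4 at pooled rank 1727, with 14.3 at rank 6432 in replicate 3 and 47.8 at rank 1539 in replicate 4. Prosbeta1, which carries the caspase-like site, lies on arm 2R and had a signal of 67.4 at pooled rank 1945, with 30.7 at rank 1602 in replicate 3 and 36.3 at rank 3148 in replicate 4. Prosbeta1 was just inside the optimal list, whose lowest signal was 66.9.

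Replicate 3 had 5 members within its strongest 1985 peaks (10.4%), against 11.7% of protein-coding genes, and replicate 4 had 5 (10.4%), against 11.3%. The members within that limit in both replicates were 3 (6.25%, against 8.06%), and those within it in 1 replicate only were 4 (8.33%, against 6.84%). Rpt5 and Prosbeta1 were within it in replicate 3, and Prosbeta5 and Rpn13 in replicate 4. These shares were near the background.

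**Figure D2:**
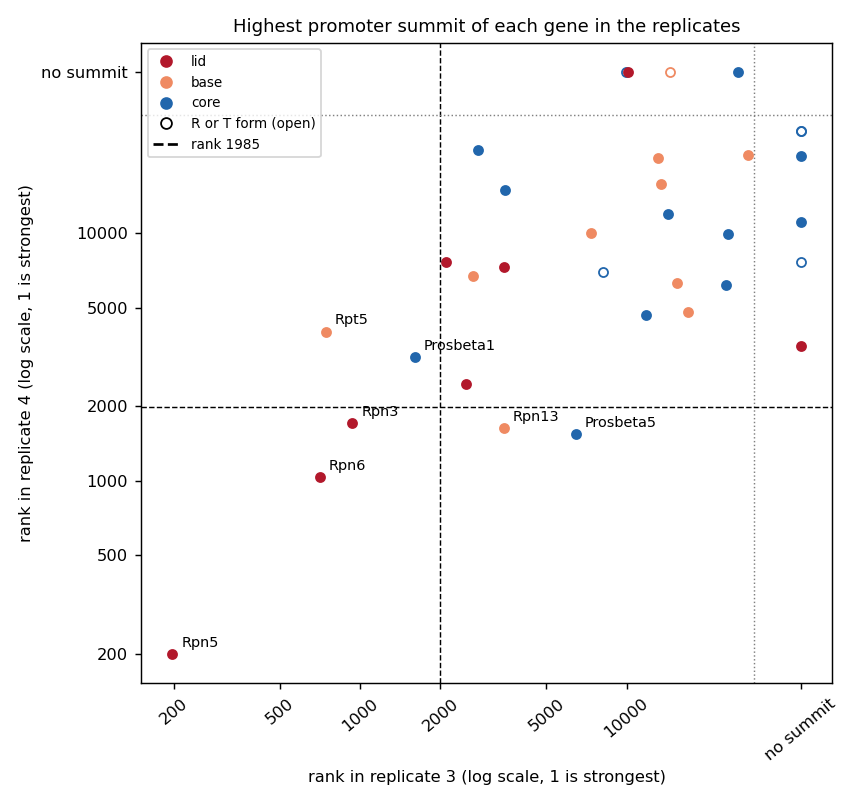
Each point is a proteasome gene, with its rank among the peaks of replicate 3 on the horizontal axis and of replicate 4 on the vertical axis, both on log scales; the 14 genes with no summit in either are not drawn. Rpn5, Rpn6 and Rpn3 are within the strongest 1985 peaks on both axes, while Rpt5, Prosbeta1, Prosbeta5 and Rpn13 are within that limit on 1 axis only.

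The next members below the optimal list were again mostly lid genes. Rpn8, the partner of Rpn11 in the lid, had a pooled signal of 54.1 at rank 3059, with ranks 2485 and 2453 in replicates 3 and 4. Rpn11 had a pooled signal of 53.2 at rank 3151, with ranks 2102 and 7666. Both proteins belong to the enzyme pair of the lid that cuts off ubiquitin chains. Rpn12, a lid scaffold subunit, had 49.2 at rank 3756, with ranks 3459 and 7336. Rpn9, another lid scaffold subunit, had 48.4 at rank 3894, with no summit at its start in replicate 3 and rank 3491 in replicate 4. Thus 7 of the 8 widely used lid genes lay within the strongest 5000 pooled peaks. Rpn7, the last of these 8 genes and also a lid scaffold subunit, had no pooled summit at its start and a summit at rank 10093 in replicate 3.

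In the base, Rpn2, a scaffold for other base subunits, had a pooled signal of 51.4 at rank 3377, with ranks 2648 and 6705 in replicates 3 and 4. The ubiquitin receptor Rpn10, which sits between lid and base and is counted here with the base, had 40.5 at rank 5914. The 6 Rpt ATPase genes, whose proteins form 1 ring, ranged widely: below Rpt5, Rpt3 was at rank 7369, Rpt2 at 8322, Rpt4 at 11880, Rpt6 at 15562 and Rpt1 at 17927. Rpt5 was the only Rpt gene in the optimal list (1 of 6, against 11.4% of protein-coding genes). Rpn1, the other large scaffold of the base, had no summit at its start in any list.

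In the alpha ring, Prosalpha6 had a pooled signal of 53.8 at rank 3096, with ranks 11776 and 4681 in replicates 3 and 4. No alpha gene was in the optimal list (0 of 7, against 11.4% of protein-coding genes), a group too small to set apart from that share. Prosalpha2 followed at rank 5152, Prosalpha5 at 10848, Prosalpha7 at 11164, Prosalpha3 at 14989 and Prosalpha4 at 21571. In the beta ring, Prosbeta3 was at rank 8547 and Prosbeta7 at 13643. Prosbeta6 had no pooled summit and a summit at rank 26084 in replicate 3. Prosalpha1, Prosbeta2 (the subunit with the trypsin-like site) and Prosbeta4 had no summit in any list. The subunits with proteolytic sites therefore included 2 genes of the optimal list and 1 gene with no summit. Such small counts were not tested.

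The median pooled rank, with genes without a summit placed last, was 3059 for the widely used lid, 7369 for the base and 11164 for the core, against 27991 for protein-coding genes. The lid, base and core groups are of even size, and for them the lower (stronger) of the 2 middle ranks was taken as the median. In replicate 3 these medians were 2102, 13094 and 23648, and in replicate 4 they were 2453, 6705 and 12003. The order of lid, base and core was the same in both replicates, which are the source of the pooled list. A gene with several annotated starts can have more sequence searched. Several starts were annotated for 4 of 8 widely used lid genes, 4 of 10 base genes and 2 of 14 core genes. Whether this shapes the order was not tested. Counting only the gene record's start left an optimal summit at 4 of 23 lid and base genes (17.4%), without Rpn6. The core then had 2 of 25 (8.00%) and protein-coding genes 10.1%. Within the strongest 500 pooled peaks there was 1 member (2.08%, against 3.16%), and within the strongest 1000 there were 2 (4.17%, against 6.27%). Within the strongest 5000 there were 13 (27.1%, against 22.7%), of which 7 were widely used lid genes. Within the strongest 10000 there were 20 (41.7%, against 32.4%), and in the whole pooled list 29 (60.4%, against 51.6%). The members' share was below that of protein-coding genes among the strongest 1000 peaks and above it from the optimal list's size onward.

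**Figure D3:**
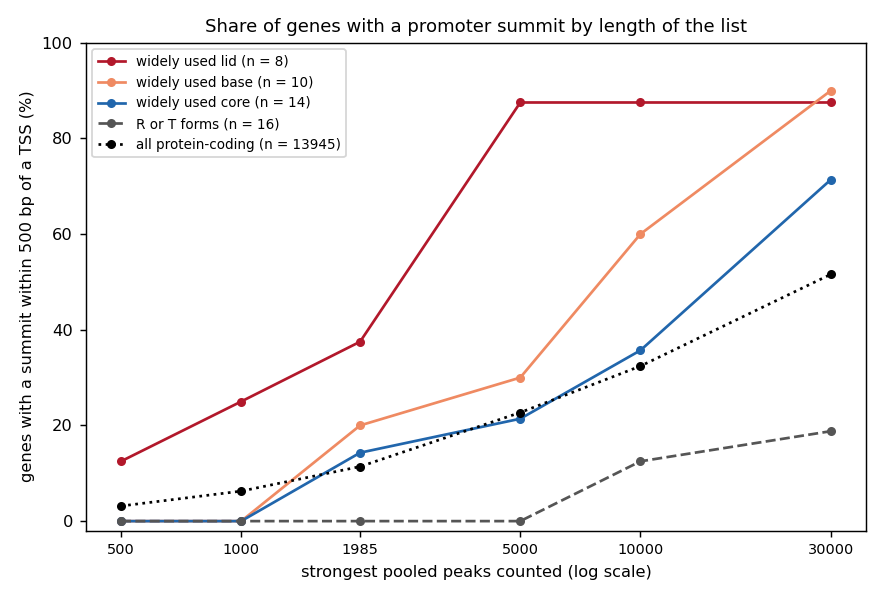
The horizontal axis gives how many of the strongest pooled peaks were kept and the vertical axis the percentage of genes with such a summit within 500 bp of a start, for the widely used lid, base and core, the R or T forms and protein-coding genes. The lid reaches 87.5% at 5000 peaks, where the base is at 3 of 10 genes, the core at 21.4%, the R or T forms at 0 and protein-coding genes at 22.7%.

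All 7 optimal summits at proteasome genes also lay within 500 bp of the start of another protein-coding gene on the other strand, which held for 53.5% of protein-coding genes with an optimal summit. A peak of this kind cannot be assigned to either gene from its position. The Rpt5 summit lay 15 bp upstream of Rpt5 and 27 bp upstream of RanBP3, which encodes a Ran-binding protein. The Rpn3 summit lay 31 bp upstream of Rpn3 and 147 bp upstream of l(2)37Bb, between the genes. The Rpn6 summit lay 48 bp upstream of the inner of the 2 annotated Rpn6 starts, in an intron of the longer Rpn6 transcript, and 202 bp upstream of ave, a component of receptor tyrosine kinase signalling. In these 3 genes the proteasome start was the nearest one.

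In the other 4 the partner was nearer. The Rpn5 summit lay 251 bp upstream of Rpn5 and 142 bp inside Hat1, a histone acetyltransferase gene, in an intron. The Rpn13 summit lay 342 bp upstream of Rpn13 and 71 bp inside CtsL1, a lysosomal protease gene, in an untranslated exon. The Prosbeta5 summit lay 76 bp upstream of Prosbeta5 and 18 bp upstream of dgo, a planar polarity gene. The Prosbeta1 summit lay 89 bp upstream of Prosbeta1 and 32 bp upstream of Rrp42, which encodes a subunit of the RNA exosome. The proteasome gene's own start was thus nearest in 3 of 7 (42.9%), against 71.9% of protein-coding genes with an optimal summit. Measured from the proteasome start nearest to it, each of the 7 summits was upstream, against 81.8%, and for Rpn6 this is the inner start. With summits counted only for the gene whose start is nearest, 3 of 48 members had an optimal summit (6.25%), against 8.42% of protein-coding genes, so the members' share was then below the background.

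**Figure D4:**
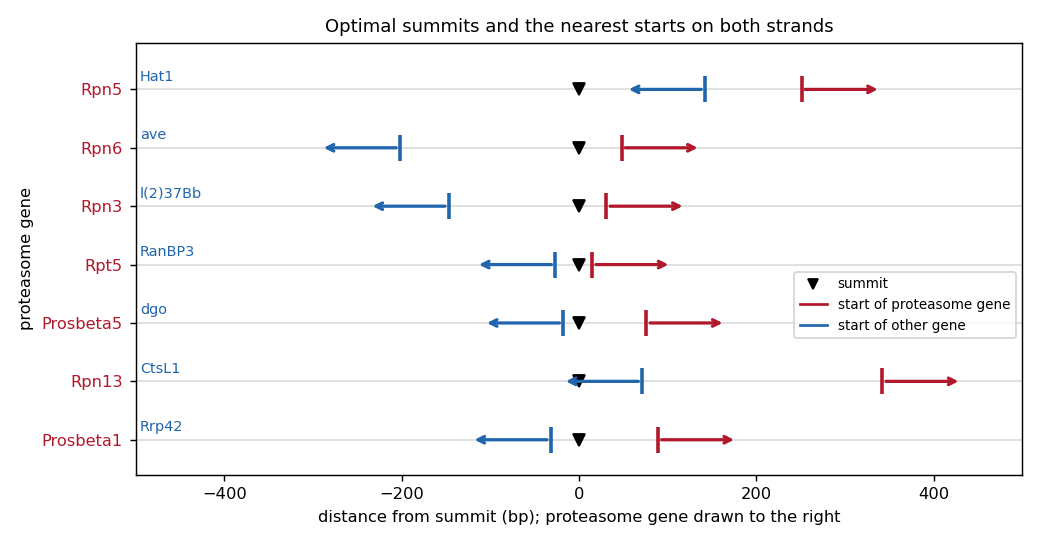
For each of the 7 proteasome genes with an optimal summit, the summit is at 0 on the horizontal axis, in bp, and arrows mark the starts of the proteasome gene (to the right) and of the gene on the other strand (to the left). The start drawn for the proteasome gene is the one nearest the summit. The summit lies between the drawn starts except at Rpn5 and Rpn13, where it lies inside Hat1 and CtsL1, and at Rpn6 the drawn start is the inner one, so that summit lies in a Rpn6 intron.

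Head-to-head arrangement, with the start of a gene on the other strand within 500 bp upstream, was frequent among the widely used subunits: 21 of 32 (65.6%), against 3 of 16 R or T forms (18.8%) and 27.4% of protein-coding genes. Members with such a partner had an optimal summit in 7 of 24 (29.2%), against 23.1% of protein-coding genes with a partner. Members without a partner had one in 0 of 24, against 7.06%. A partner was present for 6 of 8 widely used lid genes, 6 of 10 base genes and 9 of 14 core genes. Of those with a partner, 3 of 6 lid, 2 of 6 base and 2 of 9 core genes had an optimal summit. Whether arrangement shapes the higher share of the lid, or the stronger median ranks of these groups than of protein-coding genes, was not tested. Arrangement and form moved together, so their parts in the difference between widely used and R or T forms cannot be told apart here. Among the weaker lid summits, the Rpn8 summit lay nearer to Slik, a kinase gene, than to Rpn8. Counting only summits whose nearest start was the gene's own, 4 of the 8 widely used lid genes (Rpn3, Rpn6, Rpn11 and Rpn12) were within the strongest 5000 pooled peaks. On that count the members had 7 of 48 (14.6%), against 17.6% of protein-coding genes.

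The 16 R or T forms encode proteins with 28.7% identity or more to the widely used subunit (median 55.6%). A pooled summit lay at the start of 3 of them (18.8%), against 51.6% of protein-coding genes. Prosbeta2R2 had a pooled signal of 42.1 at rank 5404, with ranks 8144 and 6977 in replicates 3 and 4, and its summit lay nearer to CG1116, 18 bp away, than to its own start, 111 bp away. Prosalpha6T had 33.4 at rank 9688 and was at rank 7651 in replicate 4 only. Prosbeta4R2 had 22.2 at rank 25312, 442 bp inside the gene, and was at rank 26009 in replicate 4 only. All 3 lay below the optimal list, and their widely used counterparts differed: Prosbeta2 and Prosbeta4 had no summit, whereas Prosalpha6 did.

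A summit in a single replicate and none in the pooled list was found at Prosalpha4T1 (rank 9924, replicate 3), Rpt3R (rank 14546, replicate 3) and Prosbeta5R1 (rank 25877, replicate 4). The other 10 had none in any list: Prosalpha1R, Prosalpha3T, Prosalpha4T2, Prosbeta2R1, Prosbeta4R1, Prosbeta5R2, Rpn12R, Rpn13R, Rpt4R and Rpt6R. These are 10 of 16 forms, beside 5185 of 13945 protein-coding genes with no summit in any list. Rpt6R and Rpt4R, with 87.4% and 81.9% identity to Rpt6 and Rpt4, had no summit, while Rpt6 and Rpt4 were in the pooled list. Prosalpha1R and Prosalpha1 encode identical proteins, and their DNA was 98.8% identical over the gene. How reads that map equally to both copies were handled is stated in no source used here, so the lack of a summit at this pair is uncertain. RNA was not measured, so the activity of the R or T forms in these embryos is unknown.

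The search for motifs took either strand of the 250 bases before to 50 after each gene's start. The DRE TATCGATA was present in 12 of 32 widely used promoters (37.5%) and in 0 of 16 R or T promoters, against 9.36% of protein-coding promoters. The BEAF-32 core CGATA was present in 27 of 32 (84.4%) and 8 of 16, against 47.4%, a count that includes the DRE. The DRE promoters were those of Rpn3, Rpn7, Rpn9 and Rpn12 of the lid, Rpn13 and Rpt5 of the base, and Prosalpha3, Prosalpha5, Prosalpha6, Prosbeta1, Prosbeta2 and Prosbeta6 of the core. Lid and base had 6 of 18 and the core 6 of 14. An optimal summit lay at 4 of the 12 members with a DRE (33.3%), against 18.4% of protein-coding genes with one. It lay at 3 of the 36 without (8.33%), against 10.7%. These 36 include all 16 R or T forms, none of which had an optimal summit. Among the widely used subunits alone, 3 of the 20 without a DRE had one, a share above 10.7%. These differences were not tested. They were also not split by head-to-head arrangement: 8 of the 12 members with a DRE have a partner, among them all 4 with an optimal summit. At Rpn13 the summit, 342 bp upstream, lay outside the promoter stretch searched for the DRE. Prosbeta2 has a DRE and no summit in any list, and Rpn5 has the strongest summit and no DRE.

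Since head-to-head promoters also differ in these motifs, the widely used promoters were set beside them as well. The DRE was in 38.1% of the 21 widely used promoters with a partner and in 36.4% of the 11 without, against 17.4% and 6.32% of protein-coding promoters. The extended DRE ATCGATAG, which overlaps the DRE, was in 15.6% of widely used promoters, 0 R or T promoters and 8.54% of protein-coding promoters, but in 15.6% of protein-coding promoters with a partner. Motif 1, searched as GGTCACAC, was in 15.6%, 0 and 7.70%, and in 14.7% of protein-coding promoters with a partner. Motif 7, searched as CATCNCTA, was in 12.5%, 6.25% and 6.42%, and in 457 of 3815 of those with a partner. Split by arrangement, the extended DRE and Motif 1 were each in 14.3% of the 21 widely used promoters with a partner. Each was in 18.2% of the 11 without, against 5.86% and 5.07% of protein-coding promoters without a partner. Motif 7 was in 4.76% of widely used promoters with a partner and 27.3% of those without, against 4.32% of protein-coding promoters without. These groups are small, and the differences were not tested. Motif 6, searched as GGTATTTT, was in 15.6% of widely used, 12.5% of R or T and 5.27% of protein-coding promoters, and in 7.92% of those with a partner. The cnc element TGACNNNGC was in 15.6%, 6.25% and 8.63%, and in 8.23% of those with a partner. The TATA box TATAAA was in 40.6%, 31.2% and 45.8%, which are close to one another. The initiator TCAGT was in 56.2% of widely used promoters, 8 of 16 R or T promoters and 51.5% of protein-coding promoters, also close. The GAGA factor word GAGAG was in 9.38% of widely used, 37.5% of R or T and 29.7% of protein-coding promoters. The E-box CAGCTG was in 3.12%, 6.25% and 17.7%, and the word CACAGTGG in 0, 0 and 1.26%. Median GC content was 33.5% in widely used, 32.7% in R or T and 38.0% in protein-coding promoters.

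**Figure D5:**
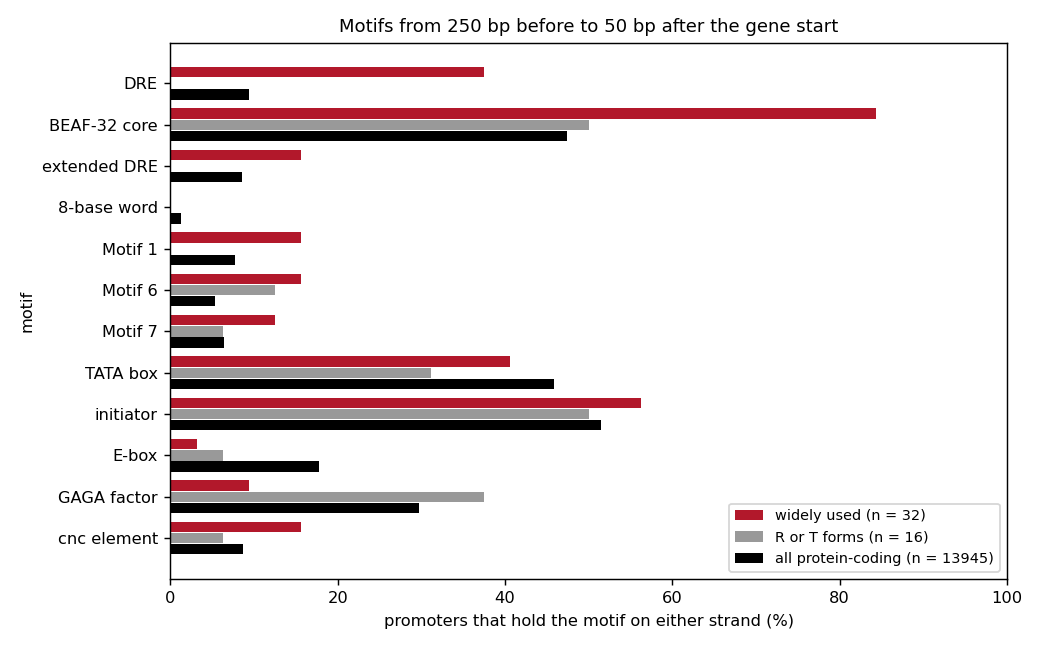
The vertical axis lists the motifs and the horizontal axis gives the percentage of promoters holding each, for the widely used subunits, the R or T forms and protein-coding genes (the 8-base word is CACAGTGG). The DRE bar reaches 37.5% in the widely used subunits and 0 in the R or T forms, against 9.36% in protein-coding genes.

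Within 50 bases either side of the summit, the DRE was present at Prosbeta1 and Rpt5, 2 of the 7 members with an optimal summit, against 6.09% of the 1231 optimal summits at protein-coding starts. The BEAF-32 core was present at 3 of 7 (Prosbeta1, Rpn6 and Rpt5), against 26.9%, and the initiator at 3 of 7 (Prosbeta1, Rpn3 and Rpt5), against 18.9%. Rpn5 held neither. These windows are descriptions of the reference sequence and say nothing of the protein that binds there.

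Among 27 listed genes whose products act with the proteasome, 3 had an optimal summit at their start (11.1%, against 11.4% of protein-coding genes), a share at the background. They were 1 of 9 for the COP9 signalosome, 1 of 13 for regulators, shuttles and assembly factors, and 1 of 5 for ubiquitin genes. The signalosome subunit gene alien had a signal of 176 at pooled rank 245, at ranks 209 and 308 in replicates 3 and 4, and shares its summit with CG18661. TER94, which encodes the segregase that delivers substrates to the proteasome, had 124 at rank 560, with ranks 516 and 695. The polyubiquitin gene Ubi-p63E had 86.6 at rank 1167, with ranks 876 and 2086. Just below the optimal list lay cnc at 65.4 (rank 2066), Uch-L5, a deubiquitinase of the proteasome, at 65.4 (rank 2073), and RpS27A, which encodes a ubiquitin fusion, at 64.3 (rank 2146). A pooled summit lay at 22 of the 27 (81.5%), against 51.6% of protein-coding genes.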

How the data were processed

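ChIP-seq against GFP was made from sonicated chromatin, per the labels. The authors deposited peak lists in dm6 and dm3 coordinates, and only the dm6 lists were used. Their column of signal is the authors' own value per peak, and the aligner, peak caller, irreproducible discovery rate threshold, control and read depth are named in none of the sources used here. Depth therefore sets no interval on any value.

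For each gene the highest signal among summits within 500 bp of any annotated transcription start was taken, with Python 3.11.15 and Ensembl release 115 annotation of the BDGP assembly 6.54, the same assembly as dm6. Ranks were counted within each list. Promoter and summit sequence came from the RefSeq Release 6 genome, and protein identity from global alignment of translated coding sequence with Biopython 1.88. Figures used matplotlib 3.10.9. The matching of summits to starts and the motif search were checked on simulated data. Alternatives were a window of 250 or 1000 bp, only peaks at or above the optimal list's median signal, the gene record's start, any peak base in place of the summit, and each replicate list in turn. Counting only the nearest start was added after seeing the data, as was the head-to-head grouping. Members, the R or T split and the gene lists were chosen with earlier results of these data known. Every member is accounted for: those with an optimal summit and all R or T forms in full, the rest by value or count.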

Additional observations from a re-analysis of the deposited data

How the results depend on the processing

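Across the alternatives 36 of 48 recomputed counts stayed within 1.5 times the reported one. This tally includes the R or T forms, at 0 throughout, and all protein-coding genes, and its groups overlap. It is therefore no measure of how stable the members' counts are. With only peaks at or above the optimal list's median signal, 2 members (Rpn5 and Rpn6) stayed called (4.17%), against 871 protein-coding genes (6.25%). The members' share was then below the background. Lid and base had 2 (8.70%), the core 0 and the widely used subunits 2 (6.25%). With only the nearest start counted, 3 members (Rpn3, Rpn6 and Rpt5) were called (6.25%, against 8.42% of protein-coding genes), all in lid and base, with 0 in the core and 3 among widely used subunits. Lid and base fell to 3 at 250 bp (13.0%, against 9.53% of protein-coding genes). The genes lost were Rpn5, the strongest member, and Rpn13, whose summits lay 251 and 342 bp from their starts. Without replicate 3 or without replicate 4 the core count was 1 in each case (4.00%, against 11.3% and 11.7% of protein-coding genes). The R or T forms stayed at 0 in every setting. No paired analysis was possible because there is 1 group. Depth and a control library are not known here, so a missing summit is not evidence of no binding.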

Other observations

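Optimal summits also lay within 2000 bp of 5 of the 48 members without being at their starts (10.4%), against 11.8% of protein-coding genes, a share near the background. Downstream of Rpn5, 173 bp beyond the gene's end and 137 bp from the start of Hpf1, a summit had a signal of 298 at optimal rank 72, with ranks 57 and 81 in replicates 3 and 4, stronger than the summit at Rpn5's own start. Near Rpn2, a summit of 105 at rank 787 lay 224 bp from the start of rdog. Near Prosalpha3, a summit of 93.2 at rank 1004 lay more than 500 bp from any gene start. Near Prosbeta6, a summit of 80.7 at rank 1354 lay 55 bp from the start of CG4098. Near Rpn10, a summit of 72.1 at rank 1694 lay 289 bp from the start of VhaM9.7-b.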
